A study of Homo sapiens with 9 samples.

Results

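The genes described here encode the structural proteins of the cytoskeleton and the proteins that bind them directly: actin filaments, myosin motors, intermediate filaments (mainly keratins) and microtubules. Members were chosen by gene symbol, as actins, alpha-actinins, actin-related and Arp2/3 subunits, cofilins, profilins, thymosins, formins of the DIAPH family, filamins, tropomyosins, transgelins, calponins and caldesmon, myosin chains and their kinase, vimentin, desmin, nestin and keratins, and tubulins, stathmins, microtubule-associated proteins and the CKAP genes. This rule found 65 of the 6499 genes in the table of doxorubicin against control, with 20 in the actin filament system, 17 in the myosin system, 10 in the intermediate filament system and 18 in the microtubule system. ACTB and VIM, which encode the main cytoplasmic actin and vimentin, are not among the listed genes and were not analysed here.

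WI-38 cells are fibroblasts of human lung, an established diploid line, and all libraries came from cells at population doubling 30. The control group received DMSO in place of doxorubicin. The doxorubicin group, the cell model of induced senescence, received 1 μM doxorubicin for 12 h. DMSO-containing medium followed for 48 h in both groups. Doxorubicin, an anthracycline, causes DNA breaks by trapping topoisomerase II. Each group had 3 libraries of total RNA, and nothing in the labels says that these came from separate cultures, so the p-values measure only the spread between these libraries. The 3 libraries that received oridonin after doxorubicin were not analysed here.

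Actin monomers assemble into filaments that are branched by the Arp2/3 complex, elongated by formins, crosslinked by alpha-actinin and filamin, and covered by tropomyosin. Non-muscle myosin pulls on these filaments once its regulatory light chain is phosphorylated, and fibroblasts that contract strongly express smooth muscle type actins and calponin. Microtubules are polymers of alpha- and beta-tubulin that serve transport in interphase and form the spindle in mitosis, and cells adjust tubulin mRNA to the amount of free tubulin. Keratins are intermediate filament proteins typical of epithelia, while fibroblasts rely mainly on vimentin.

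Values are TPM, transcript abundance per length at a common library total, a scale on which the levels of different genes can be compared, with the unit inferred from the values. The authors' methods select genes at a fold over 1.2 and a p-value under 0.05, and the table is taken as that selection in the same 6 libraries. No test below is therefore independent of that choice, and calls describe size and spread. Some listed genes miss that fold in the values used here, such as MYL6 with a ratio of doxorubicin to control means of 1.07. The scale behind the authors' fold was not checked. Listed genes held 54.3 to 54.8% of all TPM in a control library and 58.6 to 60% in a doxorubicin library. Read depth is unknown, since TPM does not keep it. The correlation of log2 values across genes lay at 0.992 to 0.995 within groups and at 0.935 to 0.958 across them. The fibroblast markers COL1A1, COL1A2, COL3A1 and PDGFRB, the listed 4 of 8 chosen, summed to 5814 to 6164 TPM in control libraries. In doxorubicin libraries they summed to 3915 to 4600 TPM. All 4 were called lower by the criteria given below, against 48.5% of all genes tested.

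Most of the listed cytoskeletal genes were lower after doxorubicin, and the keratins formed the main exception among them. A gene counted as called at a Benjamini-Hochberg adjusted p under 0.05 in limma, fitted on log2(TPM + 1) over the 5721 genes that averaged 1 TPM or more, and a fold change over 1.2. Of the 65 members 60 passed this filter, and 38 of them (63.3%) were called lower, 11 (18.3%) higher and 11 neither. Over all genes tested, 71.2% were called in either direction, 48.5% lower and 22.7% higher. The 2 groups of libraries did not overlap for 54 members (90.0%), against 80.7% of all genes tested. The median log2 fold change was -0.53 for the members and -0.28 for all genes tested. In bulk RNA, fewer cells that express a gene and less of its RNA per cell cannot be told apart.

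The 4 filament systems differed in their direction. In the microtubule system 15 of 18 members were lower and 2 higher (median log2 fold change -0.65), and in the actin filament system 13 of 20 were lower and 3 higher (median -0.54). Of the 13 myosin members tested 8 were lower and 1 higher (median -0.32). Of the 9 intermediate filament members tested 5 were higher and 2 lower (median 0.405). Relative to the median of all genes, these medians were -0.37, -0.25, -0.04 and 0.69. No test of the difference between systems was made, since the members were chosen with results of these data known.

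**Figure D1:**
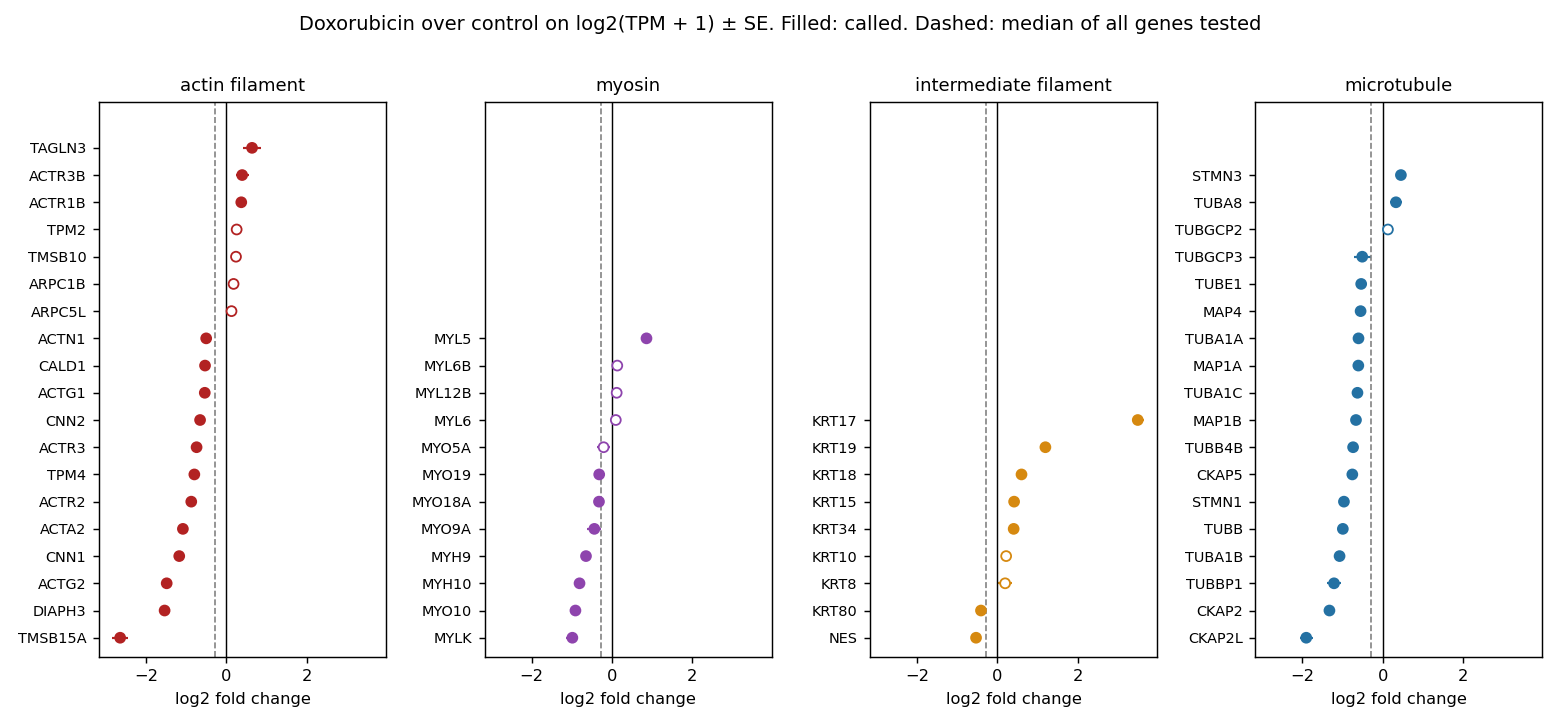
Log2 fold change of doxorubicin over control on the log2(TPM + 1) scale (x axis) for 58 of the 60 members tested, in a panel per filament system, with bars for the standard error. Filled points are called genes, open points are not called, and the dashed line is the median of all 5721 genes tested (-0.28). Of the 18 microtubule members 15 are called lower, while 5 of 9 intermediate filament members are called higher, with KRT17 farthest to the right at 3.49.

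The share of members called higher depended on how the libraries were scaled. With TPM as deposited, 22.4% of called members were higher. It was 28.9% after quantile normalization over the listed genes (13 higher, 32 lower) and 39.6% after median-ratio scaling over them (21 higher, 32 lower). Over all called genes, the share of higher genes was 31.9% as deposited, 53.5% after quantile normalization and 54.8% after median-ratio scaling. These scalings moved the median of all genes from -0.28 to -0.01 and to -0.08. The 11 members not called with TPM as deposited lay between -0.21 and 0.25 in log2 fold change, and 10 of them were called higher with median-ratio scaling.

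**Figure D2:**
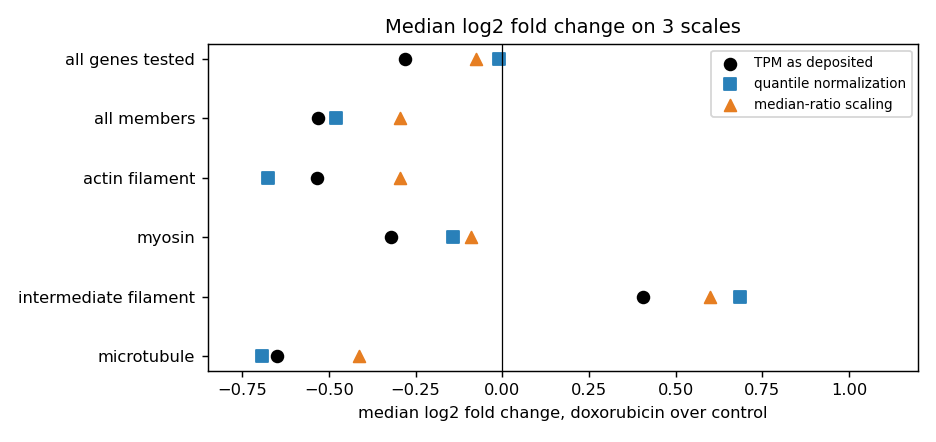
Median log2 fold change of doxorubicin over control (x axis) for all genes tested, all members and each filament system, with TPM as deposited (circles), after quantile normalization (squares) and after median-ratio scaling (triangles). The microtubule, actin filament and myosin medians lie below 0 on all 3 scales, and the intermediate filament median lies above 0 on all 3.

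The tubulins, the building blocks of microtubules, were among the most abundant members and fell together. The 6 listed alpha- and beta-tubulin genes summed to 6218, 6647 and 6137 TPM in control replicates 1 to 3 and to 3487, 3360 and 3794 TPM in doxorubicin replicates 1 to 3. Their mean was 6334 ± 274 TPM (SD, n = 3) in the control group and 3547 ± 223 TPM in the doxorubicin group, a change of -44.0%. The groups did not overlap, and the exact 2-sided permutation test gave p = 0.1, the smallest value that 3 against 3 libraries allow.

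TUBA1B, the alpha-tubulin with the highest mean here (chr12:49127782-49131397, minus strand, GRCh38), measured 2059, 2216 and 2012 TPM without doxorubicin and 978.4, 936.0 and 1068 TPM after doxorubicin. Each doxorubicin library was thus below every control library. The log2 fold change was -1.08 ± 0.06 (SE) with a limma adjusted p of 2.8e-07. TUBB, the main beta-tubulin listed (chr6:30720201-30725426, plus strand), gave 1201, 1293 and 1169 TPM and then 603.3, 569.7 and 666.3 TPM, a log2 fold change of -0.99 ± 0.07 (adjusted p = 9.9e-07). Its control libraries were all higher than its doxorubicin libraries.

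TUBA1A, TUBA1C and TUBB4B fell less. TUBA1A went from a mean of 1301 ± 10.6 to 856.2 ± 51.5 TPM (log2 fold change -0.61 ± 0.05), TUBA1C from 1179 ± 77.1 to 760.9 ± 48.6 TPM (-0.63 ± 0.06) and TUBB4B from 536.4 ± 18.3 to 320.8 ± 8.49 TPM (-0.74 ± 0.05). None of these overlapped between groups. The makeup of alpha-tubulin mRNA therefore shifted. TUBA1B made up 45.4 to 46.2% of the sum of TUBA1A, TUBA1B and TUBA1C in control libraries and 37.9 to 38.2% in doxorubicin libraries (exact permutation p = 0.1, n = 3 per group). The shares of TUBA1A and TUBA1C rose in turn, from 28.5% ± 0.96 to 32.8% ± 0.13 and from 25.7% ± 0.61 to 29.1% ± 0.06. TUBA1A, TUBA1B and TUBA1C are near-identical in their coding sequence, so the split between them depends on how the authors' counting assigned shared reads.

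Minor and specialised tubulins behaved variously. TUBA8, an alpha-tubulin of low level, gave 1.22, 1.64 and 1.2 TPM in control and 2.05, 2.15 and 1.65 TPM in doxorubicin libraries. Its nearest libraries were 0.01 TPM apart. Its log2 fold change was 0.33 with an adjusted p of 0.049, and leaving out a library ended the call in 4 of 6 fits (control replicate 1 or 3, doxorubicin replicate 1 or 2; adjusted p up to 0.136). TUBBP1, a transcribed processed pseudogene of beta-tubulin, fell from 14.4 ± 1.13 to 5.78 ± 1.65 TPM (-1.21 ± 0.16), and reads of TUBB could have been counted there. TUBE1, epsilon-tubulin of the centriole, fell from 6.37 ± 0.77 to 4.08 ± 0.58 TPM (-0.54 ± 0.14), a call lost after quantile normalization (-0.17, adjusted p = 0.254).

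The gamma-tubulin complex, which nucleates microtubules, had 2 listed subunits. TUBGCP2 was not called at 43.5 ± 2.03 and 47.6 ± 1.42 TPM. TUBGCP3 was called lower at 10.4 ± 2.48 and 7.05 ± 1.88 TPM (-0.51 ± 0.21, adjusted p = 0.046). Its groups overlapped, since control replicate 2 at 7.67 TPM lay below doxorubicin replicates 1 and 3 at 8.49 and 7.74 TPM, and the call was lost in 4 of 6 fits that left out a library (control replicate 1 or 3, doxorubicin replicate 2 or 3; adjusted p up to 0.148). It was also lost after quantile normalization (-0.18, adjusted p = 0.451) and with median-ratio scaling (-0.30, adjusted p = 0.193).

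Genes for proteins that set microtubule stability were mostly lower. STMN1, stathmin, which binds free tubulin dimers and promotes disassembly, gave 346.2, 385.1 and 363.7 TPM in the control group and 185.2, 190.2 and 182.7 TPM in the doxorubicin group. The doxorubicin libraries lay within 8 TPM of each other. The log2 fold change was -0.97 ± 0.06 (adjusted p = 4.0e-07). STMN3, a neuronal relative, rose from 23.0 ± 0.10 to 31.8 ± 0.75 TPM (0.45 ± 0.08, adjusted p = 0.00062). The filament-binding MAP1A, MAP1B and MAP4 were all lower, with log2 fold changes of -0.61, -0.67 and -0.55. MAP4, the most abundant of them, fell from 169.0 ± 5.43 to 115.1 ± 9.92 TPM.

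The CKAP genes bind microtubules during mitosis and included the steepest microtubule falls. CKAP2 gave 17.5, 19.9 and 15.8 TPM and then 6.18, 6.22 and 6.92 TPM (-1.33 ± 0.12). CKAP2L, which localises to the spindle, gave 2.46, 3.88 and 2.53 TPM in control libraries and was listed at 0, 0.05 and 0.08 TPM after doxorubicin (-1.91 ± 0.16), so it passed the filter on low values only through the control group. CKAP5, a microtubule polymerase that also acts in interphase, fell from 31.3 ± 3.24 to 18.3 ± 3.86 TPM (-0.76 ± 0.14). Cells in mitosis express spindle genes strongly, and of 15 spindle genes on a chosen list 14 were listed. All 14 were called lower (median log2 fold change -2.65), against 48.5% of all genes tested. They summed to 217 to 258 TPM in control and 36.3 to 41.9 TPM in doxorubicin libraries. Many of them, such as ASPM and KIF4A at doxorubicin means of 0.13 and 0.03 TPM, passed the filter on low values only through the control group. TPX2, which brings kinases to the spindle, fell from 25.8 ± 3.18 to 1.67 ± 0.24 TPM. The part of these genes in the tubulin values was not tested.

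**Figure D3:**
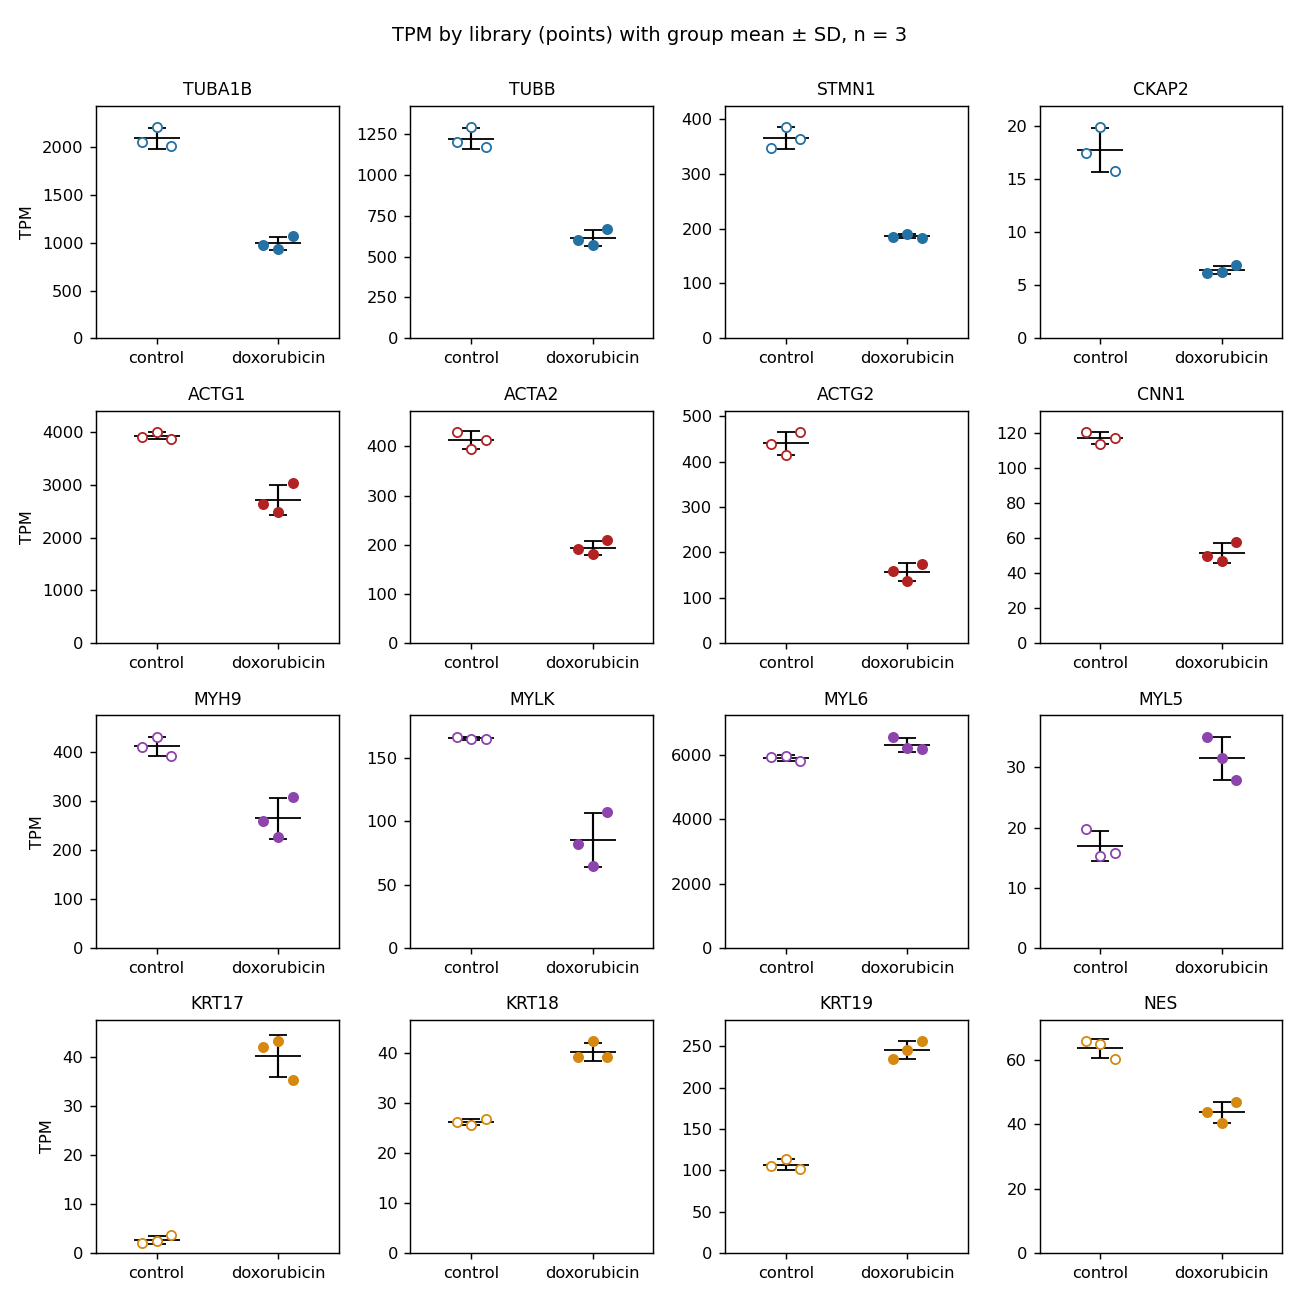
TPM (y axis, from 0) of 16 members in each of the 3 control libraries (open points) and 3 doxorubicin libraries (filled points), with group means and SD bars, n = 3. TUBA1B, TUBB, STMN1, CKAP2, ACTG1, ACTA2, ACTG2, CNN1, MYH9, MYLK and NES are lower in every doxorubicin library than in any control library, while MYL6, MYL5, KRT17, KRT18 and KRT19 are higher in every one.

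Other listed microtubule genes from a chosen list were mostly lower. Of 22 dynamics and motor genes 9 were listed. By limma 7 of the 9 were called lower and none higher, with the same counts at an unadjusted p under 0.05. The shares over all genes tested were 48.5% lower and 22.7% higher. CLIP1, a plus-end linker, fell from 26.9 ± 1.72 to 14.6 ± 3.59 TPM (-0.87 ± 0.15) and KIF5B, the conventional kinesin, from 33.5 ± 4.12 to 17.7 ± 2.93 TPM (-0.89 ± 0.13). TTC5, which recognises nascent tubulin and starts decay of tubulin mRNA, fell from 9.16 ± 0.89 to 5.79 ± 0.18 TPM (-0.58 ± 0.11). Of 19 genes for tubulin folding, including the chaperonin, 3 were listed, and only TBCE, a tubulin cofactor, was called, lower at 17.2 ± 1.18 and 11.3 ± 1.2 TPM.

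All 3 listed actins were lower, the smooth muscle forms by more than the cytoplasmic form. ACTG1, gamma-cytoplasmic actin (chr17:81509971-81523847, minus strand), gave 3916, 4011 and 3878 TPM in the control group and 2631, 2487 and 3031 TPM in the doxorubicin group. ACTA2, the smooth muscle alpha-actin used as a mark of contractile fibroblasts (chr10:88935074-88991339, minus strand), gave 430.0, 394.5 and 413.8 TPM and then 190.9, 182.2 and 210.0 TPM. ACTG2, the enteric smooth muscle gamma-actin (chr2:73892314-73919865, plus strand), gave 439.9, 415.3 and 466.0 TPM and then 158.7, 137.0 and 175.6 TPM. In none of the 3 genes did the groups overlap, and in each doxorubicin replicate 2 was the lowest library and replicate 3 the highest of its group. The log2 fold changes were -0.54 ± 0.07, -1.08 ± 0.07 and -1.49 ± 0.09, with limma adjusted p of 9.1e-05, 4.4e-07 and 4.5e-07. ACTG1 made up 82.2% ± 0.90 of the sum of the 3 actins in the control group and 88.5% ± 0.23 in the doxorubicin group (exact permutation p = 0.1, n = 3). Actin coding sequences are near-identical, so reads could be exchanged between these genes in the authors' counting.

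Because the actin and thin filament genes fell together, the 250 bases before their start sites were searched for the CArG box, the site of serum response factor (SRF), which drives many contractile genes. The search and its motif were chosen after the values had been seen. RefSeq start sites on GRCh38.p14 were at hand for 53 of the 65 members, with 80 starts in all. A CArG box, searched on both strands, stood before 6 of these 80 starts (7.5%), against 407 of 35116 starts of all genes (1.16%). Starts of 1 gene share sequence, and these shares are a description with no test. All 6 belong to actin or myosin genes that were called lower, namely ACTG2, ACTG1, CNN2, MYLK, TPM4 and ACTN1. They are printed here because they are the full set of members with the motif, each as the box in capitals with 30 bases on either side, 5′ to 3′ on the strand of the gene.
ACTG2 (chr2:73892868-73892974, + strand): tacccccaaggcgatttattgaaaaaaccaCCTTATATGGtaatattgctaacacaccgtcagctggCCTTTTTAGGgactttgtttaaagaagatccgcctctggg
ACTG1 (chr17:81512854-81512923, - strand): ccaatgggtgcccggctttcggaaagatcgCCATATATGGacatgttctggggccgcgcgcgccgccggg
CNN2 (chr19:1026489-1026558, + strand): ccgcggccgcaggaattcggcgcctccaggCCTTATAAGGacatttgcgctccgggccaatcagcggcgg
MYLK (chr3:123620603-123620672, - strand): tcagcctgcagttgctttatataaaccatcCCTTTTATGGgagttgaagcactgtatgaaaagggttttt
TPM4 (chr19:16067335-16067404, + strand): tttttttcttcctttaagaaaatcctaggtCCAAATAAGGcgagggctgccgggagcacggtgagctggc
ACTN1 (chr14:68977698-68977767, - strand): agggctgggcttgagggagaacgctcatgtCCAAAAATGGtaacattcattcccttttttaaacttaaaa
ACTG2 carried 2 boxes, 110 and 73 bases before its start. The boxes of ACTG1 and MYLK began 94 bases and that of CNN2 89 bases before the start, while those of TPM4 and ACTN1 lay 173 and 171 bases before 1 of 3 and 1 of 4 starts. The MYLK start lies near the 3′ end of the gene, where the short telokin transcript begins, and not at the start of the kinase mRNA. ACTA2 and CNN1 had no exact match in these windows, which says only that these letters are not there. No CArG box stood before the 8 starts of members called higher or the 22 starts of microtubule members called lower. At the 1.16% of all starts, sets this small would seldom hold a box, so no contrast is drawn from this.

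Genes for proteins of the thin filament mostly fell with the actins. CNN1, calponin of smooth muscle, gave 120.6, 113.4 and 116.9 TPM and then 49.5, 46.8 and 58.0 TPM (-1.18 ± 0.08, adjusted p = 1.6e-06). Its control libraries were more than 55 TPM above any doxorubicin library. CNN2 fell from 328.9 ± 10.5 to 209.0 ± 22.7 TPM (-0.66 ± 0.07) and CALD1, caldesmon, from 197.4 ± 16.8 to 136.7 ± 19.6 TPM (-0.53 ± 0.10). The tropomyosins parted. TPM4 gave 850.9, 881.3 and 839.4 TPM and then 479.8, 451.8 and 549.6 TPM (-0.80 ± 0.07, adjusted p = 8.0e-06). TPM2 gave 3346, 3298 and 3418 TPM and then 3970, 4190 and 3840 TPM, a log2 fold change of 0.25 ± 0.05 (adjusted p = 0.00091) that fell short of the fold threshold. TPM2 was called without control replicate 3 or doxorubicin replicate 3 (log2 fold change up to 0.28) and with median-ratio scaling (0.50), and measured 0.03 after quantile normalization. The ratio of TPM2 to TPM4 was 3.74 to 4.07 in control and 6.99 to 9.28 in doxorubicin libraries. This separation was fixed by the opposite shifts of the 2 genes, neither of which overlapped between groups. TAGLN3, a transgelin of neurons, was at 0.56, 0.32 and 0.79 TPM and then 2.38, 0.95 and 1.1 TPM. Its log2 fold change of 0.64 ± 0.21 rested on doxorubicin replicate 1 and control replicate 2 (adjusted p up to 0.079 without either), and it passed the filter on low values only through the doxorubicin group.

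Markers of smooth muscle did not all move the same way. Of 6 on a chosen list 5 were listed, and ACTG2, CNN1 and LMOD1 were called lower among the 4 tested. SMTN, smoothelin, was not called at 77.5 ± 7.93 and 91.8 ± 2.80 TPM (0.25 ± 0.08, adjusted p = 0.018). The sum of the 5, most of it ACTG2 and CNN1, was 648 to 689 TPM in control and 299 to 353 TPM in doxorubicin libraries. MYH11, the heavy chain that defines differentiated smooth muscle, was at 0.08, 0.03 and 0.03 TPM in the control and 0.16, 0.45 and 0.16 TPM in the doxorubicin group, too low to be tested. Of 17 symbols chosen for the SRF and MRTF system 8 were listed, with 6 called lower and 1 higher, against 48.5% and 22.7% of all genes tested. The 17 symbols include 2 names for some genes, and VCL, LMOD1 and SMTN are also on other lists used here. SRF itself fell from 25.9 ± 0.34 to 18.1 ± 1.63 TPM (-0.49 ± 0.09) and its cofactor MRTFB from 1.91 ± 0.44 to 0.95 ± 0.17 TPM (-0.57 ± 0.15). MRTFB passed the filter on low values only through the control group. FHL2, a LIM protein induced by SRF, was the gene called higher, at 247.8 ± 2.35 and 338.2 ± 10.4 TPM (0.45 ± 0.05).

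Genes for crosslinkers and nucleators of actin were lower in part. ACTN1, alpha-actinin, fell from 437.9 ± 20.7 to 310.8 ± 51.2 TPM (-0.50 ± 0.10). DIAPH3, a formin that elongates filaments and acts in cell division, gave 10.4, 11.3 and 9.31 TPM and then 2.79, 2.58 and 3.36 TPM (-1.54 ± 0.13, adjusted p = 5.6e-06). Doxorubicin libraries of DIAPH3 were all below 4 TPM.

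The listed mRNAs of the Arp2/3 complex did not move together, and not all of its subunits are listed. ACTR2 and ACTR3, the actin-related subunits that start a branch, fell from 131.1 ± 13.3 to 71.5 ± 12.5 TPM (-0.88 ± 0.12) and from 171.6 ± 22.4 to 102.6 ± 17.9 TPM (-0.74 ± 0.13). ARPC1B and ARPC5L, other subunits of the complex, were not called at 361.2 ± 6.39 against 408.8 ± 21.5 TPM and at 54.3 ± 2.22 against 59.3 ± 2.59 TPM. The ratio of ARPC1B to ACTR2 was 2.95, 2.48 and 2.88 in control and 5.52, 6.69 and 5.21 in doxorubicin libraries. Its separation was fixed as well, since ARPC1B was higher and ACTR2 lower in every doxorubicin library. ACTR3B, a less used form of ACTR3, was called higher at 3.63 ± 0.43 and 5.15 ± 1.40 TPM (0.39 ± 0.16, adjusted p = 0.049), and the call was lost without control replicate 1, control replicate 2 or doxorubicin replicate 3 (adjusted p up to 0.172). ACTR1B, a dynactin subunit and so a partner of microtubule motors, rose from 41.1 ± 2.5 to 53.3 ± 1.73 TPM (0.37 ± 0.07, adjusted p = 0.0016).

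Thymosins bind actin monomers and keep them from polymerising. TMSB10 was the most abundant member and ranked 2 among all listed genes in each of the 6 libraries. It gave 15034, 14431 and 15829 TPM in control and 17503, 19144 and 16774 TPM in doxorubicin libraries. Every doxorubicin library was above every control library, but the log2 fold change of 0.24 ± 0.06 (adjusted p = 0.0034) stayed under the fold threshold. It passed the threshold without control replicate 3 or doxorubicin replicate 3 (up to 0.28) and with median-ratio scaling (0.48). After quantile normalization, where its rank of 2 in every library fixes its value, the log2 fold change was 0. TMSB15A, by contrast, fell from 7.17, 10.6 and 9.23 TPM to 0.26, 1.1 and 0.5 TPM (-2.65 ± 0.20, adjusted p = 3.4e-06), and passed the filter on low values only through the control group. The ratio of TMSB10 to ACTG1 was 3.84 ± 0.24 in the control and 6.63 ± 1.08 in the doxorubicin group (n = 3). Its separation was fixed by TMSB10 being higher and ACTG1 lower in every doxorubicin library.

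**Figure D4:**
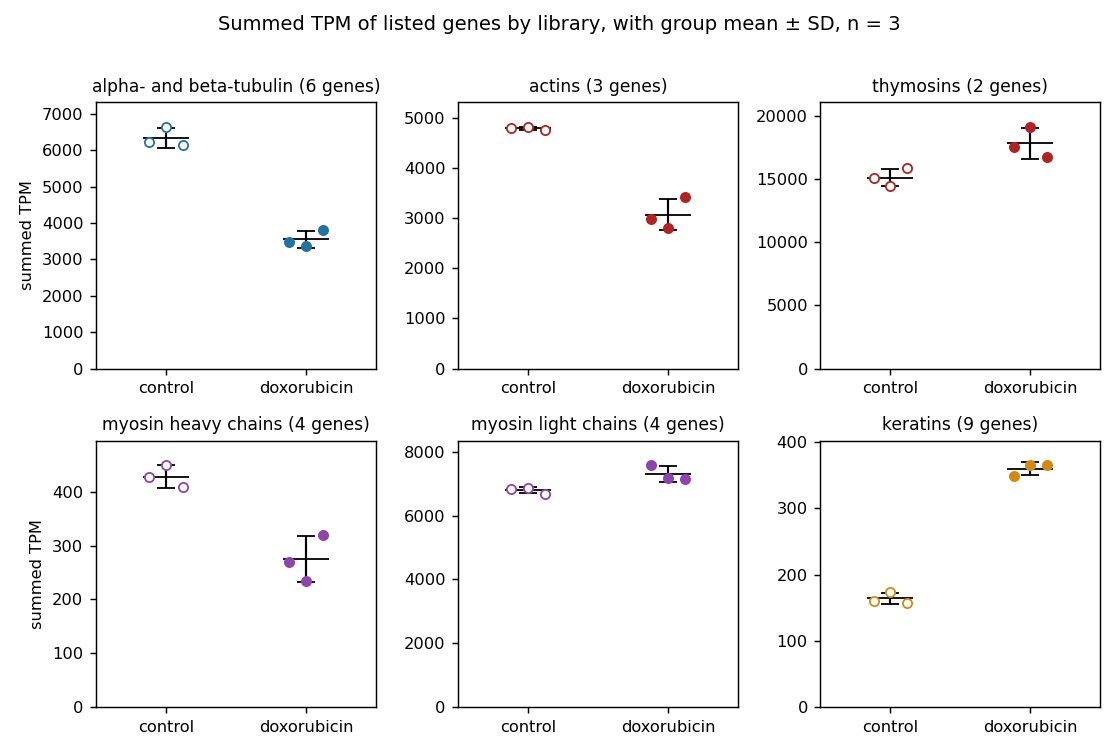
Summed TPM (y axis, from 0) of the listed genes of 6 classes in each control library (open points) and doxorubicin library (filled points), with group mean and SD bars, n = 3. The sums of alpha- and beta-tubulin (6334 to 3547 TPM), actins (4788 to 3068 TPM) and myosin heavy chains (428.6 to 274.7 TPM) are lower after doxorubicin, and those of thymosins, myosin light chains (6805 to 7309 TPM) and keratins (164.1 to 360.1 TPM) are higher.

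Regulators of actin outside the membership were counted as well. Of 38 on a chosen list 17 were listed, with 13 called lower (76.5%) and 2 higher (11.8%), against 48.5% and 22.7% of all genes tested, and their median log2 fold change was -0.65. ANLN, anillin, which links actin and myosin in the cleavage furrow, fell from 30.1 ± 2.14 to 1.25 ± 0.52 TPM (-3.81 ± 0.16). The kinases ROCK1 and ROCK2, which act on myosin light chain and its phosphatase, fell by 0.66 and 0.75 on the log2 scale. VCL, vinculin of adhesion sites, fell from 147.5 ± 7.37 to 94.2 ± 12.9 TPM (-0.65 ± 0.09). GSN, gelsolin, which severs filaments, rose from 283.6 ± 4.11 to 370.1 ± 25.2 TPM (0.38 ± 0.06), and CYFIP2, of the WAVE complex, from 4.55 ± 1.15 to 18.1 ± 2.77 TPM (1.79 ± 0.16).

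In the myosin system both heavy chains tested and 5 of the 6 unconventional myosins tested were called lower, and none of the 4 light chains was. By limma the light chains also had 0 called lower at an unadjusted p under 0.05. MYH9, the main non-muscle heavy chain (chr22:36281277-36388067, minus strand), gave 410.2, 430.6 and 392.0 TPM in control and 258.9, 225.9 and 308.4 TPM in doxorubicin libraries. The lowest control library exceeded the highest doxorubicin library by more than 80 TPM. The log2 fold change was -0.65 ± 0.10 (adjusted p = 0.0004). MYH10, the second non-muscle heavy chain, fell from 17.5 ± 1.80 to 9.64 ± 1.88 TPM (-0.81 ± 0.14). MYLK, the kinase of the regulatory light chain, gave 166.9, 164.9 and 165.1 TPM and then 82.4, 65.0 and 107.5 TPM (-0.98 ± 0.15, adjusted p = 0.00051), with control libraries within 3 TPM of each other and doxorubicin libraries far apart.

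The light chains bind the neck of the heavy chain. MYL6, the essential light chain of non-muscle myosin and the second most abundant member, gave 5925, 5970 and 5793 TPM and then 6558, 6194 and 6170 TPM. MYL12B, a regulatory light chain, gave 775.6, 784.6 and 756.6 TPM and then 862.6, 818.0 and 835.2 TPM. MYL6B measured 120.1 ± 7.55 and 131.8 ± 5.71 TPM. None of the 3 was called, and their log2 fold changes were 0.10, 0.12 and 0.13. All 3 were called higher with median-ratio scaling, while after quantile normalization MYL6 and MYL12B turned to -0.07 and -0.09. The ratio of MYL6 to MYH9 in TPM is left as it is by a common factor for all genes of a library. It was 14.4, 13.9 and 14.8 in control and 25.3, 27.4 and 20.0 in doxorubicin libraries. These ratios could not overlap between groups, since MYL6 was higher and MYH9 lower in every doxorubicin library, so no p-value is given. MYL5, a light chain of low level, was called higher at 19.8, 15.2 and 15.8 TPM against 35.1, 31.5 and 27.9 TPM (0.86 ± 0.12, adjusted p = 0.00019), and held the call on all 3 scales.

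Unconventional myosins carry cargo or shape protrusions. MYO10, the myosin of filopodia, fell from 19.6 ± 1.99 to 10.1 ± 2.14 TPM (-0.91 ± 0.14). MYO18A, MYO19 and MYO9A were called lower by less (-0.32, -0.32 and -0.44). These 3 lost their calls under both other scalings. MYO19 and MYO9A also lost theirs without most single libraries. Of 6 fits MYO19 kept the call only without doxorubicin replicate 3 (adjusted p up to 0.172 in the others), and MYO9A only without control replicate 3 or doxorubicin replicate 3 (adjusted p up to 0.139). MYO5A, a cargo motor, was not called at 10.1 ± 1.78 and 8.68 ± 1.88 TPM and changed sign with scaling (0.08 after quantile normalization and 0.01 with median-ratio scaling). MYH11, MYH16, MYO16 and MYO3B had means under 1 TPM and were not tested, and MYO3B was listed at 0 in all control libraries.

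Most keratins rose in these fibroblasts. The 9 listed keratins summed to 160.6, 174.0 and 157.5 TPM in the control group and 349.1, 365.3 and 365.8 TPM in the doxorubicin group, a 2.19-fold higher mean (exact permutation p = 0.1). KRT17, a keratin of basal and injured epithelium (chr17:41619441-41624842, minus strand), gave 2.12, 2.36 and 3.59 TPM in control and 41.9, 43.1 and 35.3 TPM in doxorubicin libraries. Its lowest doxorubicin library was more than 30 TPM above its highest control library. The log2 fold change of 3.49 ± 0.15 (adjusted p = 5.0e-08) was the largest rise of all 5721 genes tested, and it stayed between 3.38 and 3.66 without any single library. The mean of KRT17 was 14.9-fold higher in TPM. KRT17 has near-identical relatives and pseudogenes, so some reads could belong to them.

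KRT19, a small keratin of simple epithelia, was the most abundant keratin. It gave 104.5, 114.0 and 101.7 TPM in control and 235.0, 245.8 and 255.8 TPM in doxorubicin libraries, with no overlap (1.2 ± 0.06, adjusted p = 1.9e-07). KRT18 gave 26.1, 25.5 and 26.8 TPM and then 39.1, 42.3 and 39.1 TPM (0.60 ± 0.08, adjusted p = 0.00011). KRT8, the partner with which KRT18 forms filaments, was at 8.11, 10.9 and 7.01 TPM and then 9.10, 8.75 and 12.2 TPM. Its groups overlapped and it was not called with TPM as deposited (0.19 ± 0.17, adjusted p = 0.302). KRT8 was called higher by limma after quantile normalization (0.50, adjusted p = 0.015) and with median-ratio scaling (0.41, adjusted p = 0.023). The ratio of KRT18 to KRT8 was 3.13 ± 0.75 and 4.11 ± 0.83, which overlapped as well (exact permutation p = 0.3). KRT17, KRT18 and KRT19 were called higher on all 3 scales. KRT17 rose from 1.65% ± 0.54 to 11.2% ± 1.31 of all keratin TPM, and KRT19 from 65.0% ± 0.50 to 68.2% ± 1.52.

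The remaining keratins were at low level. KRT15 and KRT34 were called higher at 4.23 ± 0.27 against 6.01 ± 0.91 TPM and at 3.32 ± 0.61 against 4.71 ± 0.60 TPM (0.42 ± 0.13 and 0.41 ± 0.14). KRT15 lost the call without control replicate 1 (adjusted p = 0.057). KRT34 lost it without control replicate 1 or 3 or doxorubicin replicate 1 or 2 (adjusted p up to 0.098). KRT80 was called lower at 1.76 ± 0.33 and 1.07 ± 0.09 TPM (-0.41 ± 0.14), a call lost without control replicate 2 or doxorubicin replicate 2 (adjusted p up to 0.065) and on both other scales. KRT10 was not called with TPM as deposited, but was called higher after quantile normalization (0.48) and with median-ratio scaling (0.44). KRT6B stayed under 0.2 TPM in every library. NES, nestin, an intermediate filament protein of progenitor cells, gave 65.7, 64.8 and 60.2 TPM and then 43.8, 40.5 and 47.0 TPM (-0.53 ± 0.08, adjusted p = 0.00026).

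Few other epithelial markers were listed. Of 12 on a chosen list 4 were listed, of which KRT8, KRT18 and KRT19 are themselves members. The fourth, CLDN4, a claudin of tight junctions, fell from 4.73 ± 0.56 to 2.82 ± 0.90 TPM (-0.61 ± 0.17). Of 14 genes for desmosomes, cytoskeletal linkers, lamins and other intermediate filaments 9 were listed and 7 tested. Among the 7 tested, 3 were called higher and 2 lower, against 22.7% and 48.5% of all genes tested. DSP, desmoplakin, and JUP, plakoglobin, which anchor keratins at desmosomes, rose from 4.06 ± 0.56 to 6.48 ± 1.12 TPM (0.56 ± 0.15) and from 13.8 ± 1.97 to 21.2 ± 0.40 TPM (0.60 ± 0.11). INA, a neuronal filament protein, was also higher (0.47 ± 0.15). LMNB1 and LMNB2, the B-type lamins of the nuclear envelope, were the genes called lower, with log2 fold changes of -3.35 ± 0.14 and -1.04 ± 0.08. LMNB1, at a doxorubicin mean of 0.62 TPM, passed the filter on low values only through the control group. The skeletal and cardiac muscle list of 8 had 1 listed gene, RYR2, at 0 in control and 0.01 to 0.06 TPM in doxorubicin libraries.

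The doxorubicin libraries kept the same order for most members called lower. Of the 38 members called lower, doxorubicin replicate 2 was the lowest library of its group in 31 and doxorubicin replicate 3 the highest in 34. Control replicate 2 was the highest of the control group in 28. Members called higher showed no such order, with doxorubicin replicates 1, 2 and 3 highest in 3, 4 and 4 of 11. Leaving out doxorubicin replicate 2 moved the median log2 fold change of the members to -0.44, and leaving out doxorubicin replicate 3 moved it to -0.61. In the same fits the median of all genes tested moved from -0.282 to -0.231 and to -0.325, so the direction of this shift was not particular to the members. The order of libraries over all genes called lower was not counted.

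Gene span was related to the change across the whole table, while the short tubulin genes were lower. Across genes, which are not independent replicates, Spearman's rho between genomic span and log2 fold change was -0.44 over the 5700 genes tested with a position, -0.25 over the 60 members and -0.49 over the 50 members outside the tubulin class. Of the 14 members under 10000 bp outside that class 7 were called higher and 2 lower, among them KRT15, KRT17, KRT18, KRT19 and KRT34. The 5 short tubulin genes TUBA1A, TUBA1B, TUBB, TUBB4B and TUBBP1 were all called lower. At the other end, the 8 heavy chain and unconventional myosin genes tested spanned 47803 to 296289 bp, and 7 of them were called lower and none higher by limma, with the same counts at an unadjusted p under 0.05. Over all genes tested, 22.7% were called higher and 48.5% lower. The shares among all genes of similar span were not counted, so whether these members differ from such genes was not tested.

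**Figure D5:**
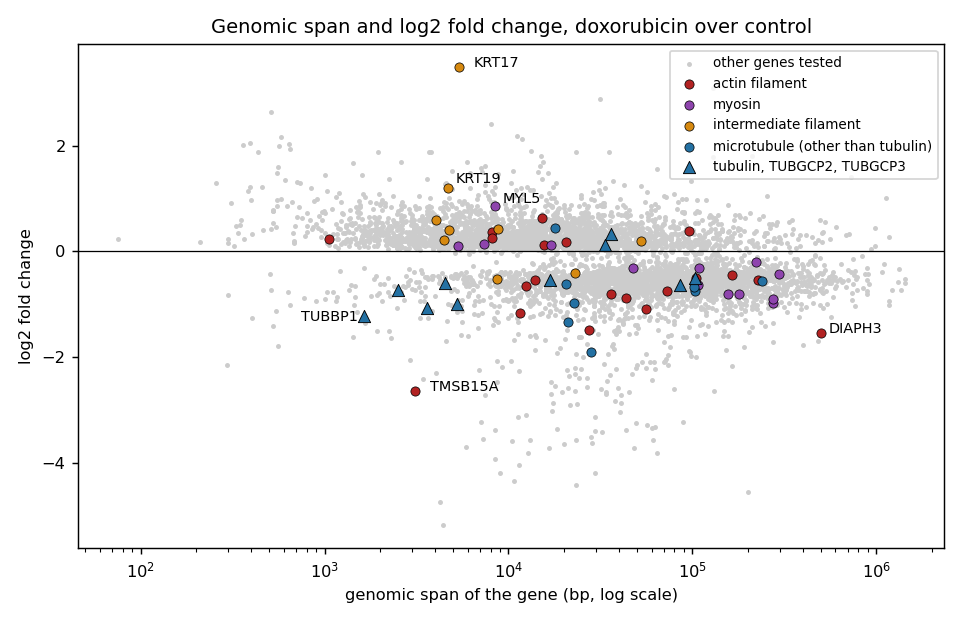
Genomic span of each gene in bp (x axis, log scale) against its log2 fold change of doxorubicin over control (y axis), with all other genes tested in grey, members coloured by filament system and the tubulin class, which includes TUBGCP2 and TUBGCP3, as triangles. The 5 shortest tubulin genes, at 1646 to 5226 bp, lie below 0, while KRT18 and KRT19, at 4031 and 4692 bp, lie above it.

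Other motifs were counted in the same windows, on both strands, and a CArG box can hold TATAAA, though none of those printed does. CCAAT stood in the 250 bases before 11 of 22 starts of microtubule members called lower (50%), against 32.0% of all starts. It also stood before 39.4% of starts of actin and myosin members called lower and 37.5% of starts of members called higher. Every start of TUBA1C at hand is among the 11, so these do not stand for 11 genes. TTTGAA, the core of the element bound by the cell cycle repressor complex, stood before 7 of these 22 starts (31.8%), against 13.3% of all starts and 3 of 33 starts of actin and myosin members called lower. The promoter of CKAP2L, the microtubule member with the lowest log2 fold change, is shown. Its 2 copies lie 86 and 17 bases before the start and are in capitals, the former as its reverse complement. A TUBA1C start also had 2 copies, and another start of TUBA1C is among the 7, so these do not stand for 7 genes. TTTGAA was absent before the starts of TUBA1B, TUBB, STMN1 and CKAP2.
CKAP2L (chr2:112764610-112764725, - strand): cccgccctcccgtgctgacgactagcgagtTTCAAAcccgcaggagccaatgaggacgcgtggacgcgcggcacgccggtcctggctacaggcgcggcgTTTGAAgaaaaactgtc
TGANTCA, the AP-1 site, stood before 2 of 80 member starts (2.5%, against 6.57% of all), and TATAAA before 8 of 80 (10.0%, against 10.7%). Of the keratins only 3 starts were at hand, and none of KRT17, KRT18 or KRT19.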

How the data were processed

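RNA of WI-38 cells was sequenced, and values of the 3 control and 3 doxorubicin libraries were used, with groups taken from the treatment labels. The authors deposited a table with a value per gene and library in a unit the header does not name, which was read as TPM from the values, and with their own means, fold changes and p-values, which were not used. The submitters' processing notes name CASAVA, HISAT2, StringTie, RSEM, DESeq2 and edgeR without roles, and the mouse build GRCm38, although the gene identifiers are human. How reads shared by similar genes were assigned, and whether strand was used, is not given in the sources used here.

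Members were matched by symbol. The members and gene lists were chosen with earlier results of these data known. The 5721 of 6499 genes that averaged 1 TPM or more were fitted on log2(TPM + 1) with limma 3.58.1 in R 4.3.3 (robust eBayes with a trend), with Benjamini-Hochberg adjustment over all of them, after a test on simulated data. The design foresaw counts or normalized values, and the latter applied. A call needed an adjusted p under 0.05 and a fold change over 1.2. Fold changes on the log2(TPM + 1) scale understate the change of low genes. Sums and ratios were compared with exact 2-sided permutation tests. The gene pairs for ratios were not part of the design. Where the 2 genes of a ratio shifted in opposite directions without overlap, its outcome was fixed and no p-value is given. Named members were, per role class, the highest mean and the 2 largest rises and falls, with KRT17, ACTA2 and TUBB, and other members with their values, while 2 members are counted but not reported here. Same-numbered libraries did not deviate together (correlations -0.06, -0.19 and -0.23), so no pairing was used. Positions come from GENCODE 29 (GRCh38) and promoters from RefSeq (GRCh38.p14). Python 3.11.15, pandas 2.3.3, NumPy 2.4.6 and SciPy 1.17.1 were used. Alternatives were a pseudocount of 0.1, other filters, scalings and thresholds, the replicate block, and leaving out each library.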

Additional observations from a re-analysis of the deposited data

How the results depend on the processing

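Of the 60 members tested, 3 changed direction under an alternative, none of which was called in either case: quantile normalization gave -0.0714 for MYL6, -0.0876 for MYL12B and 0.0843 for MYO5A, and median-ratio scaling gave 0.0113 for MYO5A. The counts of members called lower stayed within 1.5 times under all alternatives except in the myosin and intermediate filament systems. With a filter of at least 5 TPM, the counts called higher were 7 of all members, 1 of the actin filament members and 1 of the microtubule members, and 1 intermediate filament member was lower. With median-ratio scaling, 21 of all members, 7 actin filament and 4 myosin members were higher, and 5 myosin members and 1 intermediate filament member were lower. Quantile normalization left 5 myosin members and 1 intermediate filament member lower. At a fold change over 1.5, limma called 5 of all members, 1 actin filament, 3 intermediate filament and 0 microtubule members higher, and 5 myosin and 0 intermediate filament members lower. At the fold of 1.2, an unadjusted p under 0.05 gave the same 11 higher and 38 lower counts as the adjusted p. Without a filter 2 myosin members were higher, and ACTR3B and TUBGCP3 lost their calls. A pseudocount of 0.1 left 1 microtubule member higher, with ACTR3B and TUBA8 losing theirs.

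Leaving out each library in turn gave 7 to 13 members higher in all, 1 to 5 in the actin filament system, 3 to 6 intermediate filament members higher and 1 to 2 lower, and 1 to 2 microtubule members higher. The lowest count of 7 came without control replicate 1. The replicate number only names the libraries. With it as a block, 10 members were higher and 36 lower and 1 microtubule member was higher, with calls lost for MYO9A, TUBA8 and MYO19, and 3892 of 5721 genes were called against 4076. The cause of these shifts was not tested, other than that stricter filters and folds test or call fewer genes. Read depth is unknown in TPM, so no limit from counts is given, and the members near 1 TPM rest on the fewest reads per base.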
